A study of Homo sapiens with 42 samples.

Results

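The comparison set 1205Lu cells that had been with an Aurora kinase inhibitor for 12 h against cells that had been with the same inhibitor for 6 h. The arrays were chosen by the drug and time in their titles: 8 arrays at 12 h (AZD1152, n = 4, and SNS-314, n = 4) and 6 arrays at 6 h (n = 3 for each inhibitor), 14 of the 42 arrays of the series. 1205Lu is an established human melanoma line, AZD1152 (barasertib, selective for Aurora kinase B) was given at 0.5 µM, and SNS-314, which blocks every Aurora kinase, at 0.05 µM. No 0 h control enters the tests, and untreated cells kept for the same times were not analysed here, so the inhibitor and the added time in culture cannot be told apart. The labels do not say whether replicates were separate cultures, so each p-value rests on the spread between samples that may be technical repeats.

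Aurora kinase B corrects the attachment of chromosomes to the spindle and drives the final division of the cell, and Aurora kinase A builds the spindle poles. Cells in which Aurora B is blocked can enter mitosis but leave it without dividing. Genes for DNA replication are switched on before S phase by the E2F factors, and genes for mitosis peak later, in G2, under the DREAM and MuvB complexes that bind the cell cycle homology region (CHR) of their promoters.

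The arrays of both times were alike in quality. The share of probes above background was 21.8% at its lowest, 26.2% at the median and 28.7% at its highest at 12 h, and 22.1%, 26.1% and 26.7% in the same order at 6 h (exact two-sided permutation p = 0.628). Across genes, r between replicates was 0.972 to 0.993. The line carried few melanocyte genes: of 18 such genes with a probe, 5 (SOX10, S100A1, CSPG4, EDNRB and ERBB3) were above background on all 14 arrays, and 12, among them MITF, PMEL, MLANA and TYR, on none. Of 13 genes of dedifferentiated melanoma, such as AXL and EGFR, 10 were above background on all 14 arrays. Of 11 endothelial genes 0 were above background on all arrays, as were 1 of 14 leukocyte genes and 3 of 11 fibroblast genes, PDGFRA and PDGFRB among these.

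Values below are log2 intensities after background correction and quantile normalization, and changes are 12 h minus 6 h ± SE from limma, with the inhibitor as a covariate. Each gene was read from its brightest probe above background. A gene was called when its Benjamini-Hochberg adjusted p over all 8313 genes tested was under 0.05. A change in a gene's mean level over all cells can come from each cell or from the share of cells that express it, and bulk arrays cannot tell these apart.

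Between 6 h and 12 h 754 genes changed, 9.07% of those tested, with 293 higher (3.52%) and 461 lower (5.55%) at 12 h. This split depended on the processing, with 420 higher and 469 lower with replicate as a block, and 222 higher and 529 lower with scaling to the 75th percentile. The changes were small, with a median size of 0.35 among the called genes. Only 3 genes rose (0.0361%) and 6 fell (0.0722%) by a fitted change of at least 2-fold. The 3 rises are those of EBF1, RGS16 and MMP16. For EBF1 and RGS16 only a bound under 2-fold is known, and the other probe of MMP16 changed less. The median change over all genes was -0.004. Position on the chip, as read from the column names, moved with time on each of the 3 chips that held both times, and its part in the changes was not tested. The numbers 1 to 3 of the replicates each lay on 1 chip, and 12 h replicate 4 of both inhibitors lay on a chip with no 6 h array.

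Of the 12 largest fitted rises, those of EBF1, RGS16 and SHC4 have only a bound, since none of the 3 was above background on any 6 h array. They passed the filter through their 12 h arrays alone, so no p-value is given for them. For each gene the lowest, median and highest value of a group are given in that order. EBF1, a transcription factor best known from B cells and fat cells, had 8.49, 8.95 and 9.22 at 12 h and 7.28, 7.45 and 7.71 at 6 h. It was above background on 8 of 8 arrays at 12 h and on 0 of 6 at 6 h, so that it was at least 1.33-fold higher at 12 h (fitted change 1.42). RGS16, which switches off signals of G protein coupled receptors, had 9.19, 9.40 and 9.56 at 12 h and 7.93, 8.16 and 8.32 at 6 h. It too was below background on all 6 h arrays, and was at least 1.86-fold higher at 12 h (fitted change 1.25). SHC4, an adaptor of receptor tyrosine kinases, was above background on 5 of 8 arrays at 12 h and 0 of 6 at 6 h. It was at least 1.07-fold higher at 12 h (fitted change 0.78).

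Apart from TMEM71, the other genes with a large rise were measured at both times. TRIM9, a ubiquitin ligase best known from neurons, had 10.15, 10.31 and 10.42 at 12 h and 9.32, 9.47 and 9.53 at 6 h, a rise of 0.87 ± 0.07 (adjusted p = 3.8e-08) with no overlap. MMP16, a membrane-bound matrix metalloproteinase, rose by 1.07 ± 0.15 (adjusted p = 9.2e-05), but its other probe above background changed by 0.21. ATP10B, a lipid flippase, rose by 0.83 ± 0.09. TENT5C, a poly(A) polymerase, rose by 0.80 ± 0.09, and TRIL, an accessory protein of Toll-like receptors, by 0.80 ± 0.09. DOCK10, an activator of small GTPases, rose by 0.71 ± 0.11, with 10.35, 11.09 and 11.27 at 12 h and 10.15, 10.22 and 10.52 at 6 h, where the groups overlapped. LRATD2 rose by 0.82 ± 0.09. TMEM71 had a fitted change of 0.83, with 8 of 8 arrays above background at 12 h and 2 of 6 at 6 h. Like EBF1, RGS16 and SHC4 it passed the filter through its 12 h arrays alone, so no p-value is given for it.

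**Figure D1:**
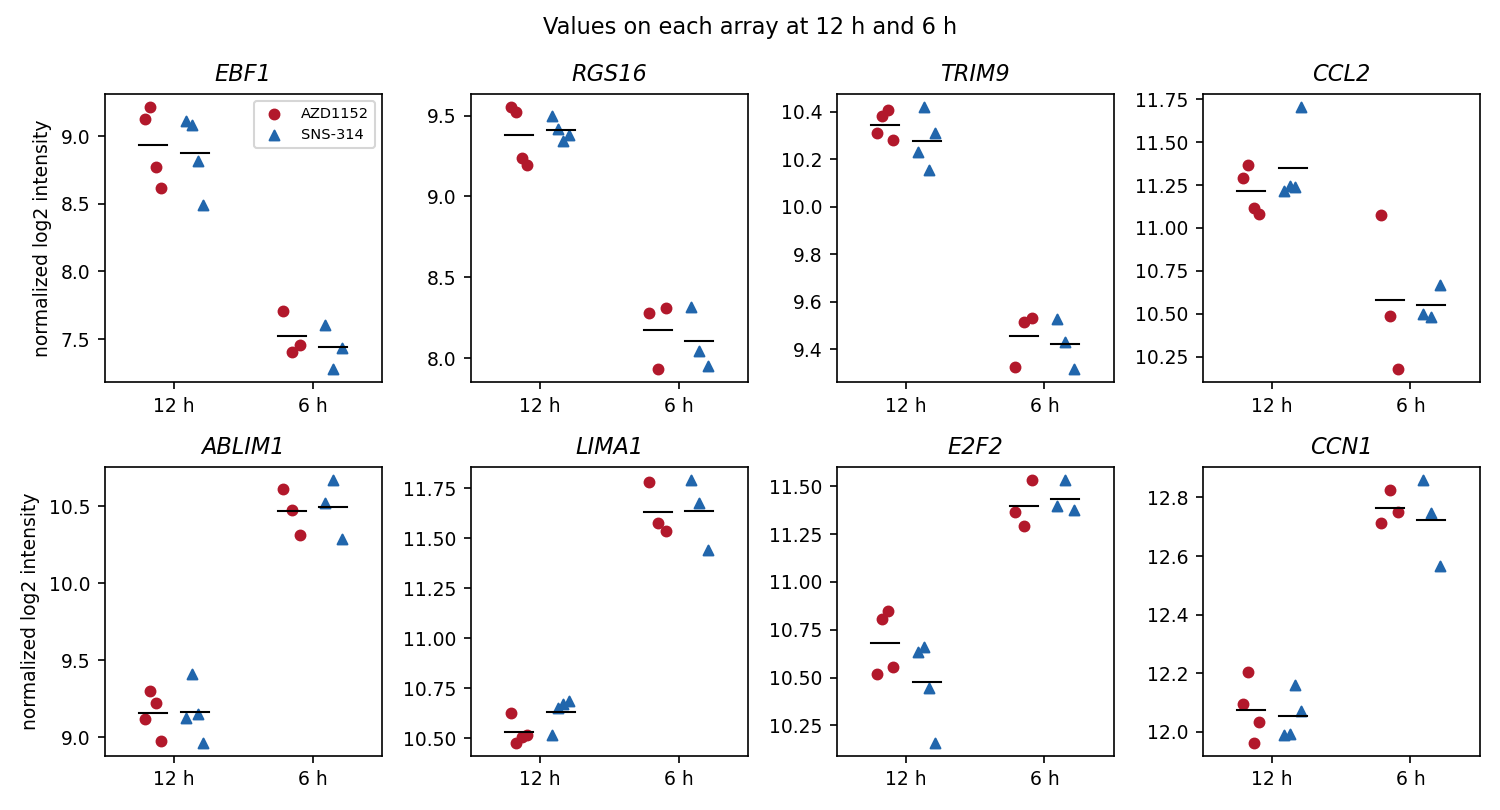
Normalized log2 intensity of 8 genes on each array, with 12 h left of 6 h, AZD1152 as red circles, SNS-314 as blue triangles and black lines for group means. Each panel has its own vertical range. The top row rose (EBF1, RGS16, TRIM9 and CCL2) and the bottom row fell (ABLIM1, LIMA1, E2F2 and CCN1). In each panel all 12 h values lie on one side of all 6 h values, but the 6 h values of EBF1 and RGS16 are below background.

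The largest falls are given next. RDH10, which oxidises retinol in the synthesis of retinoic acid, had 10.73, 10.82 and 10.95 at 12 h and 11.83, 12.27 and 12.41 at 6 h. It was 2.60-fold lower at 12 h (-1.38 ± 0.09, adjusted p = 2.0e-09). ABLIM1, a LIM protein that binds actin, had 8.96, 9.14 and 9.41 at 12 h and 10.29, 10.50 and 10.67 at 6 h, 2.50-fold lower (-1.32 ± 0.09, adjusted p = 2.6e-09). Its other probe changed by -0.91. LIMA1 (EPLIN), which bundles actin filaments, fell by 1.05 ± 0.07 (adjusted p = 5.4e-09), with values of 10.48 to 10.69 at 12 h and of 11.44 to 11.79 at 6 h. In none of these 3 genes did the groups overlap. NNMT, a nicotinamide methyltransferase, fell by 1.28 ± 0.14 (adjusted p = 2.8e-06), with 6 of 8 arrays above background at 12 h and 6 of 6 at 6 h. KCNH1, a voltage-gated potassium channel, fell by 1.22 ± 0.07 (adjusted p = 3.4e-10), with 5 of 8 arrays above background at 12 h and 6 of 6 at 6 h. MARCHF4, a membrane-bound ubiquitin ligase, fell by 1.16 ± 0.11.

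Regulators and signalling proteins stood among the falls as well. KLF13, a zinc finger transcription factor, fell by 0.96 ± 0.08, and FOXN3, a forkhead repressor, by 0.92 ± 0.07. NRG1, a ligand of the ERBB receptors, had 9.14, 9.31 and 9.37 at 12 h and 10.03, 10.19 and 10.38 at 6 h, a fall of 0.92 ± 0.07 (adjusted p = 3.8e-08) with no overlap. DDAH1, which degrades an inhibitor of nitric oxide synthase, fell by 0.95 ± 0.10. VSIR, the immune checkpoint protein VISTA, was above background on 0 of 8 arrays at 12 h and 6 of 6 at 6 h. It passed the filter through its 6 h arrays alone, so no p-value is given for it. VSIR was at least 1.25-fold lower at 12 h (fitted change -0.95). WWC1 (KIBRA), an upstream part of the Hippo pathway, fell by 0.89 ± 0.10, with 3 of 8 arrays above background at 12 h and 6 of 6 at 6 h.

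Of the gene lists, the genes for DNA replication and entry into S phase fell most often. Of 56 measured members 29 fell and 0 rose, 51.8% called against 9.07% of all genes. The list's median change was -0.29, and was -0.28, -0.27 and -0.28 within the 3 chips. Falls ranged from -0.84 to -0.27. E2F2, an activator of S phase genes, had 10.16, 10.60 and 10.85 at 12 h and 11.29, 11.39 and 11.53 at 6 h. It was 1.78-fold lower at 12 h (-0.84 ± 0.09, adjusted p = 3.2e-06), and the groups did not overlap. CDC25A, the phosphatase that activates CDK2, had 9.75, 9.95 and 10.10 at 12 h and 10.50, 10.58 and 10.73 at 6 h, a fall of 0.66 ± 0.07 (adjusted p = 3.3e-06). DTL, which directs the licensing factor CDT1 to destruction, had 9.74, 10.11 and 10.33 at 12 h and 10.59, 10.75 and 10.85 at 6 h, a fall of 0.64 ± 0.09 (adjusted p = 0.00011). All 12 h values of CDC25A and DTL lay below all 6 h values. UNG, which removes uracil from DNA, fell by 0.62 ± 0.08, and MCM10, a factor of replication initiation, by 0.60 ± 0.08. MCM5, a helicase subunit, had -0.29 ± 0.10 (adjusted p = 0.07). It passed with replicate as a block (-0.33, adjusted p = 0.045) and without SNS-314 12 h replicate 4 (-0.37, adjusted p = 0.0016). Under 23 of 26 alternatives, single chips aside, MCM5 was not called (adjusted p up to 0.19). CDC6, CCNE2 and E2F1 were not above background and were not measured.

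The promoters of the 3 members that fell furthest are shown because each holds an E2F motif close to the start. Capitals mark the motif TTTGGCGC. The windows, from RefSeq's annotation of GRCh38.p14, run from 250 bases before to 50 bases after the gene's start, and are printed 5′ to 3′ on the gene's strand. They are chr1:23531184-23531483 on the minus strand (E2F2), chr3:48188368-48188667 on the minus strand (CDC25A) and chr1:212035498-212035797 on the plus strand (DTL). Counted from the start, the motif begins at -42 (E2F2), -44 (CDC25A) and -8 (DTL).
E2F2: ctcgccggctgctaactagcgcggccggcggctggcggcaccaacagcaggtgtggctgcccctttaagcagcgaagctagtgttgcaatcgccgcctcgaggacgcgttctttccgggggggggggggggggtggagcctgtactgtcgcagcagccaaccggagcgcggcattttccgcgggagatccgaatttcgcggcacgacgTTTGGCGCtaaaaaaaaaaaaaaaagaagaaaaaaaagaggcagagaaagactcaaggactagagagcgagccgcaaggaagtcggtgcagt
CDC25A: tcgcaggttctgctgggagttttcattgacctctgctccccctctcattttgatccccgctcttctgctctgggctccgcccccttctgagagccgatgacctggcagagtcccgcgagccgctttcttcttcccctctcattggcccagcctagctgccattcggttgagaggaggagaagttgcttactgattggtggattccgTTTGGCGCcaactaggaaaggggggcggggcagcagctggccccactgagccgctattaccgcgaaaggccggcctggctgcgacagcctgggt
DTL: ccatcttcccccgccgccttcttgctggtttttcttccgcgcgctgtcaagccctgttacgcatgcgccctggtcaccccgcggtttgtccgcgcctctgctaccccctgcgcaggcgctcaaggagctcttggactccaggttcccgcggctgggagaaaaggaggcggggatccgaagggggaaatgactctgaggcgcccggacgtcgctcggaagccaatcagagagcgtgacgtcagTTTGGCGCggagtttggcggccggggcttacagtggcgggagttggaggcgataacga
E2F motifs were searched as TTTGGCGC, TTTCCCGC, TTTGCCGC and TTTCGCGC on both strands. Of the 46 measured replication genes with a promoter in the table, 22 (47.8%) held at least 1, and of the 25 with a promoter that fell 14 (56.0%) did. The share was 412 of 6870 among all genes tested (6.0%) and 908 of 27305 among all promoters in the table (3.33%). The list was drawn up from genes known in part as E2F targets, so its share describes the list and not the change. A match is a string of letters and not a bound site.

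Among the genes of G2 and mitosis nearly every call was a rise. Of 95 measured members 13 rose and 1 fell, 14.7% called. Rises are 3.52% of all genes, and the median of the list was 0.13 (0.07, 0.14 and 0.14 within the chips). The member that fell is CDCA5 (sororin), which holds sister chromatids together, with a change of -0.28, and it is named after its value was seen. NEK2, a kinase that separates the centrosomes, had 11.03, 11.34 and 11.78 at 12 h and 10.21, 10.76 and 11.10 at 6 h. It rose by 0.68 ± 0.15 (adjusted p = 0.0049), its groups overlapped, and its other probe changed by 0.36. DLGAP5 (HURP), which stabilises spindle fibres, had 11.86, 12.10 and 12.36 at 12 h and 11.26, 11.57 and 11.83 at 6 h, a rise of 0.52 ± 0.10 (adjusted p = 0.0014) with no overlap. KIF20A, a motor protein of the central spindle that carries the Aurora B complex, had 12.32, 12.44 and 12.50 at 12 h and 11.81, 11.94 and 12.08 at 6 h. It rose by 0.48 ± 0.07 (adjusted p = 1.0e-04), again with no overlap. HMMR, a spindle assembly factor, rose by 0.44 ± 0.10 (adjusted p = 0.0079) with groups that overlapped.

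The direct targets of the inhibitors were not called. AURKA, which encodes Aurora kinase A, had 12.71, 12.95 and 13.14 at 12 h and 12.64, 12.77 and 12.90 at 6 h (0.17 ± 0.08, adjusted p = 0.19). AURKB, which encodes Aurora kinase B, had 11.19, 11.49 and 11.91 at 12 h and 11.35, 11.58 and 11.80 at 6 h (-0.06 ± 0.09, adjusted p = 0.77). For both genes the groups overlapped. Of 11 measured Aurora kinases and partner proteins 1 rose and 0 fell (9.09% called, near the 9.07% of all genes). The member that rose is TPX2, which activates Aurora kinase A on the spindle (0.35 ± 0.09, adjusted p = 0.014). CDC20, an activator of the anaphase-promoting complex, had -0.12 ± 0.09 and was not called. PLK1, a mitotic kinase, had 0.22 ± 0.08 (adjusted p = 0.076), and passed with replicate as a block (0.25, adjusted p = 0.03) and without SNS-314 12 h replicate 4 (0.24, adjusted p = 0.041). Under 23 of 26 alternatives, single chips aside, PLK1 was not called (adjusted p up to 0.23). CENPE, a kinetochore motor, had 0.38 ± 0.12 (adjusted p = 0.0503), and passed with 5 processing alternatives (adjusted p from 0.046 to 0.049) and when any of 4 arrays was left out: AZD1152 6 h replicate 2 (adjusted p = 0.033), AZD1152 12 h replicate 3 (0.014), SNS-314 6 h replicate 1 (0.039) or SNS-314 12 h replicate 2 (0.034). Under the other 17 of 26 alternatives CENPE was not called (adjusted p up to 0.15, and 0.075 with replicate as a block). CCNB1 (cyclin B1) rose by 0.34 ± 0.10 (adjusted p = 0.044), a call lost with replicate as a block (adjusted p = 0.077) and without any of 9 arrays. These were all 3 of AZD1152 at 6 h, replicates 1, 3 and 4 of AZD1152 at 12 h, replicate 1 of SNS-314 at 6 h and replicates 1 and 3 of SNS-314 at 12 h, with adjusted p up to 0.11.

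Promoters of 3 mitosis genes that rose are shown for the motifs that mark the promoters of this class. Capitals mark the CHR, whose letters are TTTGAA and, read on the other strand, also TTCAAA. They also mark the CCAAT box, which reads ATTGG on the other strand. The windows are chr14:55191536-55191835 on the minus strand (DLGAP5), chr5:163460382-163460681 on the plus strand (HMMR) and chr5:138178862-138179161 on the plus strand (KIF20A).
DLGAP5: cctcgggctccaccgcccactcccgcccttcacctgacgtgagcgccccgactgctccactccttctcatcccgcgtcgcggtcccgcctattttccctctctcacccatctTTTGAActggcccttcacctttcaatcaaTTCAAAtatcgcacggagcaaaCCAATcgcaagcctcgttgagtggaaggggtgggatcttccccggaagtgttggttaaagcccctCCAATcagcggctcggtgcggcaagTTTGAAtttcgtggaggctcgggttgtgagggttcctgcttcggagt
HMMR: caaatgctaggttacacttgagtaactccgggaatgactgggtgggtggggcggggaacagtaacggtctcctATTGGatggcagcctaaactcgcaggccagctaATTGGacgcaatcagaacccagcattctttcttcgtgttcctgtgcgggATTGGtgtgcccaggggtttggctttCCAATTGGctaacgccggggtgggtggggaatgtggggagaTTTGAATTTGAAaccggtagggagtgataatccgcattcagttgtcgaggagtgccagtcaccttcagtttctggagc
KIF20A: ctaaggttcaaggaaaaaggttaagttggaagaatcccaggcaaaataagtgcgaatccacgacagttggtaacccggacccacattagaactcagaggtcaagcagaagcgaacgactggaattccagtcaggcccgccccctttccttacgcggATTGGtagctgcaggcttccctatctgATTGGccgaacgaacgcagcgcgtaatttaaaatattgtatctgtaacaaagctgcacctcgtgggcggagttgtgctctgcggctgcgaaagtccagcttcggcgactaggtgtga
DLGAP5 held 3 CHR motifs and 2 CCAAT boxes, HMMR held 2 and 5, and KIF20A held 0 and 2. In HMMR a CCAAT and an ATTGG share 2 bases and print as CCAATTGG. Of 79 measured mitosis genes with a promoter in the table, 52 (65.8%) held a CHR and 55 (69.6%) a CCAAT box. Of the 11 with a promoter that rose 6 (54.5%) held a CHR and 10 (90.9%) a CCAAT box. Among all genes tested the shares were 9.74% and 37.9%, and among all promoters in the table they were 15.4% and 35.7%. The motifs were chosen because they mark this class of genes, so the shares describe the list and not the change.

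**Figure D2:**
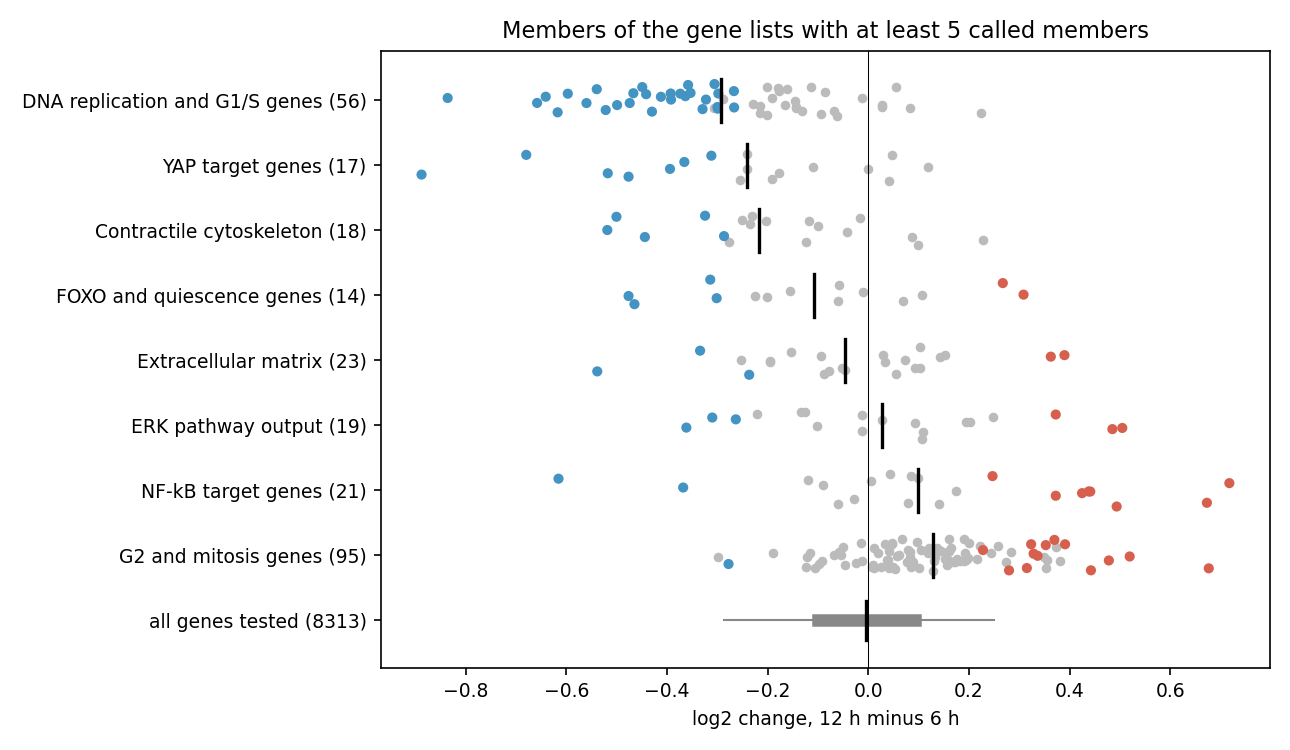
Log2 change from limma, 12 h minus 6 h, of each measured member of the 8 gene lists with at least 5 called members (numbers of measured genes in brackets), with red points for called rises, blue for called falls, grey for members not called and black bars for medians. The bottom row gives all genes tested, with a thick bar from the 25th to the 75th percentile and a thin line from the 5th to the 95th. The replication list sits left of 0, with a median of -0.29, and the mitosis list right of it, with a median of 0.13.

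Among targets of YAP, the coactivator that responds to cell shape and density, every call was a fall. Of 17 measured members 7 fell and 0 rose (41.2% called, where 9.07% of all genes were called and 5.55% fell), with a median of -0.24 (-0.25, -0.29 and -0.27 within the chips). CCN1 (CYR61), a secreted matrix protein, had 11.96, 12.05 and 12.20 at 12 h and 12.57, 12.75 and 12.86 at 6 h, a fall of 0.68 ± 0.07 (adjusted p = 1.7e-06) with no overlap. CCN2 (connective tissue growth factor) had 13.80, 13.96 and 14.36 at 12 h and 14.37, 14.52 and 14.73 at 6 h, a fall of 0.52 ± 0.09 (adjusted p = 0.00052). Its highest 12 h value, 14.36, lay just under its lowest 6 h value, 14.37. GADD45B, a stress sensor, fell by 0.48 ± 0.08, and ASAP1, which acts on ARF GTPases at focal adhesions, by 0.39 ± 0.07. The CCN2 promoter, chr6:131951323-131951622 on the minus strand, is shown because it holds the TEAD motif, CATTCC, which reads GGAATG on the other strand and is in capitals here, beginning at -169, -104 and -95 from the start.
CCN2: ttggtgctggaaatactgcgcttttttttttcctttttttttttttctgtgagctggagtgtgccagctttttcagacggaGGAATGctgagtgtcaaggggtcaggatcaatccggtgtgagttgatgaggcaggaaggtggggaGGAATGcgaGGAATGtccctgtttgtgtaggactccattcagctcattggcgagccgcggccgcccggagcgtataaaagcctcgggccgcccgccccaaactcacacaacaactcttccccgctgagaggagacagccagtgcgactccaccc
TEAD proteins carry YAP to DNA. Of 12 measured YAP targets with a promoter in the table, 4 (33.3%) held the motif, as did 10.6% of all genes tested and 3836 of 27305 promoters in the table. Of the 4 with a promoter that fell 2 did. The motif was chosen because it is the one TEAD proteins bind, so the share describes the list and not the change.

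Genes of the contractile cytoskeleton were next. Of 18 measured members 5 fell and 0 rose (27.8% called, where 9.07% of all genes were called and 5.55% fell), with a median of -0.22 (-0.14, -0.09 and -0.22 within the chips). SRF, the transcription factor that controls actin genes, had 11.04, 11.36 and 11.62 at 12 h and 11.73, 11.89 and 11.93 at 6 h, a fall of 0.52 ± 0.08 (adjusted p = 0.00032) with no overlap. CNN2 (calponin 2) fell by 0.50 ± 0.10 and TGFB1I1 (HIC-5), a focal adhesion protein, by 0.44 ± 0.07. TAGLN (transgelin), which stiffens actin bundles, had -0.28 ± 0.12 and was not called (adjusted p = 0.17). Of 12 tubulins 0 were called. In the extracellular matrix list 2 of 23 rose and 3 fell (21.7% called). VCAN (versican) rose by 0.39 ± 0.09 and COL4A2, a basement membrane collagen, by 0.36 ± 0.09, and THBS1 (thrombospondin 1) fell by 0.54 ± 0.09. The median of the matrix list was -0.05, but 0.02 with no filter and 0.03 within the chip of replicate 3.

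NF-κB targets, genes of inflammation, held more rises than falls. Of 21 measured members 8 rose and 2 fell (47.6% called, where 9.07% of all genes were called and 3.52% rose), with a median of 0.10 (0.11, 0.29 and 0.15 within the chips). CCL2, which attracts monocytes, had 11.08, 11.24 and 11.71 at 12 h and 10.18, 10.49 and 11.08 at 6 h, a rise of 0.72 ± 0.11 (adjusted p = 0.00029). The lowest 12 h and the highest 6 h value both round to 11.08, and they do not cross. IL1A, a pro-inflammatory interleukin, had 12.11, 12.28 and 12.53 at 12 h and 11.22, 11.58 and 11.92 at 6 h, a rise of 0.67 ± 0.10 (adjusted p = 9.2e-05) with no overlap. IL1B rose by 0.49 ± 0.10. TNFAIP3 (A20), a brake on NF-κB, had a fitted change of 0.44, with 7 of 8 arrays above background at 12 h and 1 of 6 at 6 h. It is counted among the 8 rises but passed the filter through its 12 h arrays alone, so no p-value is given for it. IL6, another cytokine of the list, went the other way. It had 9.73, 9.91 and 10.09 at 12 h and 10.05, 10.58 and 10.91 at 6 h, a fall of 0.62 ± 0.10 (adjusted p = 0.00036) with groups that overlapped. The other member that fell is ICAM1, an adhesion receptor, with -0.37, named after its value was seen. CXCL8 (0.10 ± 0.12), CXCL1 (0.14 ± 0.18) and NFKBIA (0.09 ± 0.11) were not called.

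The early response genes split. EGR1, an immediate early transcription factor, had 11.41, 11.53 and 11.75 at 12 h and 10.87, 11.07 and 11.16 at 6 h, a rise of 0.50 ± 0.07 (adjusted p = 9.2e-05) with no overlap. DUSP6, which dephosphorylates ERK, rose by 0.48 ± 0.09, and IER3, a stress gene, by 0.37 ± 0.08. DUSP1, a phosphatase of the stress kinases, fell by 0.36 ± 0.09. In the list of ERK pathway output 3 of 19 rose and 3 fell (31.6% called, against 9.07% of all genes), with a median of 0.03, and in the list of immediate early factors 2 of 20 rose and 2 fell (20% called). The lists share members, so their counts are not separate. The 2 immediate early falls are CCN1 and CCN2, also counted as YAP targets. EGR1 is a rise of both lists, and IER3 is also counted among the NF-κB targets. With replicate as a block the ERK median was 0.13, with 4 higher and 2 lower. MYC had -0.10 ± 0.07 and was not called.

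Targets of p53, the tumour suppressor that answers DNA damage, were called at a share near that of all genes. Of 34 measured members 2 rose and 1 fell (8.82% called, against 9.07% of all genes). The member that fell is PHLDA3, an inhibitor of AKT, with a fall of 0.35 ± 0.09. CDKN1A (p21) had 14.004, 14.18 and 14.46 at 12 h and 14.04, 14.10 and 14.14 at 6 h (0.12 ± 0.07, adjusted p = 0.37). MDM2, which targets p53 for destruction, had 0.11 ± 0.10 and was not called. GDF15, a stress cytokine, had 10.03, 10.72 and 10.98 at 12 h and 9.93, 10.20 and 10.53 at 6 h (0.43 ± 0.14, adjusted p = 0.06). With replicate as a block GDF15 had 0.58 (adjusted p = 0.00018). It passed with scaling to the 75th percentile (adjusted p = 0.044) and with all 42 arrays in the fit (adjusted p = 0.011), and without SNS-314 6 h replicate 2 (0.50, adjusted p = 0.039) or SNS-314 12 h replicate 4 (0.53, adjusted p = 0.0057). Under 20 of 26 alternatives, single chips aside, GDF15 was not called (adjusted p up to 0.14). BCL2L1, which encodes the survival protein BCL-XL, had 10.22, 10.33 and 10.54 at 12 h and 10.88, 11.06 and 11.16 at 6 h. It fell by 0.71 ± 0.07 (adjusted p = 1.2e-06) with no overlap. BID, which promotes cell death, fell by 0.38 ± 0.09, and the 2 are the called members among 10 of the BCL2 family.

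Most of the metabolic and stress lists were called at a share near or below that of all genes, of which 9.07% were called and 5.55% fell. Most calls in these lists were falls, as were 461 of the 754 calls over all genes. Of 16 cholesterol synthesis genes 3 fell (18.8%): INSIG1, which restrains the pathway's activator (-0.52 ± 0.09), HMGCS1, an early enzyme (-0.44 ± 0.09), and MSMO1, a late one (-0.40 ± 0.08). Of 34 targets of ATF4, the factor of amino acid stress, 4 fell (11.8%), led by STC2, a secreted glycoprotein (-0.55 ± 0.09), and SLC7A5, an amino acid transporter (-0.47 ± 0.08). DDIT3 (CHOP) had 0.10 ± 0.08 and was not called. In the unfolded protein list 2 of 20 fell (10%) and 0 rose, and 0 of 18 heat shock genes and 0 of 10 fatty acid synthesis genes were called. SRXN1, an antioxidant enzyme and NRF2 target, fell by 0.43 ± 0.07, 1 of 2 falls among 15 in that list (13.3%). Of 36 lysosome genes 1 fell (2.78%), GABARAPL1, an autophagy protein (-0.39 ± 0.06). Among 35 ribosome biogenesis genes 1 rose and 2 fell (8.57% called). Among 32 hypoxia genes (6.25% called) 1 rose, ANKRD37 (0.35 ± 0.08), and 1 fell, the glucose transporter SLC2A1 (-0.34 ± 0.07). MT1X, a metallothionein, fell by 0.39 ± 0.08. TXNIP, which limits glucose uptake, had 9.09, 9.40 and 9.54 at 12 h and 9.40, 9.88 and 9.94 at 6 h, a fall of 0.46 ± 0.10 (adjusted p = 0.0034) with groups that overlapped.

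The clock genes moved in both directions. PER3, a repressor of the clock, had 8.73, 8.85 and 9.001 at 12 h and 9.36, 9.47 and 9.70 at 6 h, a fall of 0.65 ± 0.07 (adjusted p = 4.8e-06) with no overlap. BMAL1, the activator on the opposite arm of the loop, had 9.22, 9.63 and 9.88 at 12 h and 9.06, 9.14 and 9.28 at 6 h, a rise of 0.48 ± 0.09 (adjusted p = 0.0016) with groups that overlapped. Of 11 clock genes 1 rose and 3 fell (36.4% called, against 9.07% of all genes). CRY1, another repressor, fell by 0.27 ± 0.07, a call lost with no filter (adjusted p = 0.079). Of 14 FOXO and quiescence genes 2 rose and 4 fell (42.9% called), with a median of -0.11 that was 0.10 within the chip of replicate 1. In the TGF-β and BMP list ID1, an inhibitor of differentiation factors, fell by 0.44 ± 0.08, and HEY1, a Notch and BMP target, rose by 0.45 ± 0.08.

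Receptors that mark melanoma states changed one by one. EGFR had 8.65, 8.91 and 9.14 at 12 h and 9.24, 9.54 and 9.67 at 6 h, a fall of 0.62 ± 0.09 (adjusted p = 9.6e-05) with no overlap. PDGFRB had 9.86, 10.05 and 10.26 at 12 h and 10.46, 10.60 and 10.78 at 6 h, a fall of 0.57 ± 0.08 (adjusted p = 3.9e-05). PDGFRA, the paired receptor for the same growth factor family, had 10.50, 10.68 and 11.07 at 12 h and 10.02, 10.18 and 10.27 at 6 h, a rise of 0.57 ± 0.09 (adjusted p = 0.00016). All 12 h values of PDGFRB lay below, and all those of PDGFRA above, the 6 h values. EDNRB, an endothelin receptor of melanocytes, rose by 0.40 ± 0.08 (adjusted p = 0.0023). EGFR was the 1 called member of 10 in the list of dedifferentiated melanoma (10% called), and EDNRB the 1 of 6 in the melanocyte list (16.7%). The lists as a whole did not move with these 2 genes. In the dedifferentiated list 5 changes were positive and 5 negative (median 0.02), and in the melanocyte list 3 and 3 (median -0.04). Of 34 interferon-stimulated genes 3 rose and 1 fell (11.8% called, against 9.07% of all genes). IFIH1, a sensor of double-stranded RNA, had a fitted change of 0.48, with 7 of 8 arrays above background at 12 h and 2 of 6 at 6 h. It is counted among the 3 rises but passed the filter through its 12 h arrays alone, so no p-value is given for it. GBP1, a GTPase of the interferon response, fell by 0.72 ± 0.09, with 4 of 8 above background at 12 h and 6 of 6 at 6 h.

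The inhibitors were then set side by side, to ask whether the step from 6 h to 12 h differed between them. With AZD1152 alone 203 genes changed (2.44%), 75 higher and 128 lower, and with SNS-314 alone 348 (4.19%), 139 higher and 209 lower. With replicate as a block these counts were 402 and 462. No gene was called for the difference between the inhibitors (0 of 8313), while 414 had an unadjusted p under 0.05, and the smallest adjusted p in limma was 0.86. The 95% interval of the difference, before any adjustment, reached 0.35 to either side in the median gene. A call after adjustment over 8313 genes needed a larger difference, so differences above 0.35 could also go uncalled. All 754 genes of the joint fit had the same sign with both inhibitors, as did 62.2% of all genes tested. The joint fit averages both inhibitors, so choosing genes by it favours equal signs. Of the 203 genes called with AZD1152, 123 (60.6%) were also called with SNS-314, which are 35.3% of the 348 called there. Over all genes the changes correlated with r = 0.522, as a description across genes whose arrays shared chips. The doses differ (0.5 µM AZD1152 and 0.05 µM SNS-314), so compound and dose cannot be told apart.

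The change with each inhibitor is given for RDH10 and ABLIM1, the largest measured falls, and for NNMT, chosen because its unadjusted p for the difference was the lowest among the named genes. RDH10 had -1.36 with AZD1152 and -1.39 with SNS-314, a difference of 0.03 (95% interval -0.34 to 0.40). ABLIM1 had -1.31 with AZD1152 and -1.33 with SNS-314, a difference of 0.02 (-0.35 to 0.38). NNMT had -1.59 with AZD1152 and -0.96 with SNS-314, a difference of -0.64 (-1.14 to -0.14) whose unadjusted p was 0.0154 in limma and which did not pass the adjustment. In the replication list 11 members fell with AZD1152 and 17 with SNS-314, where 1.54% and 2.51% of all genes fell. In the mitosis list 1 member rose with AZD1152 and 5 with SNS-314, where 0.902% and 1.67% of all genes rose. The counts with AZD1152 alone were 103, 79 and 92 without its 6 h replicates 1, 2 and 3, and 120 and 105 without its 12 h replicates 2 and 3. Those with SNS-314 alone were 229, 162 and 215 without its 6 h replicates, and 184 without its 12 h replicate 3.

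**Figure D3:**
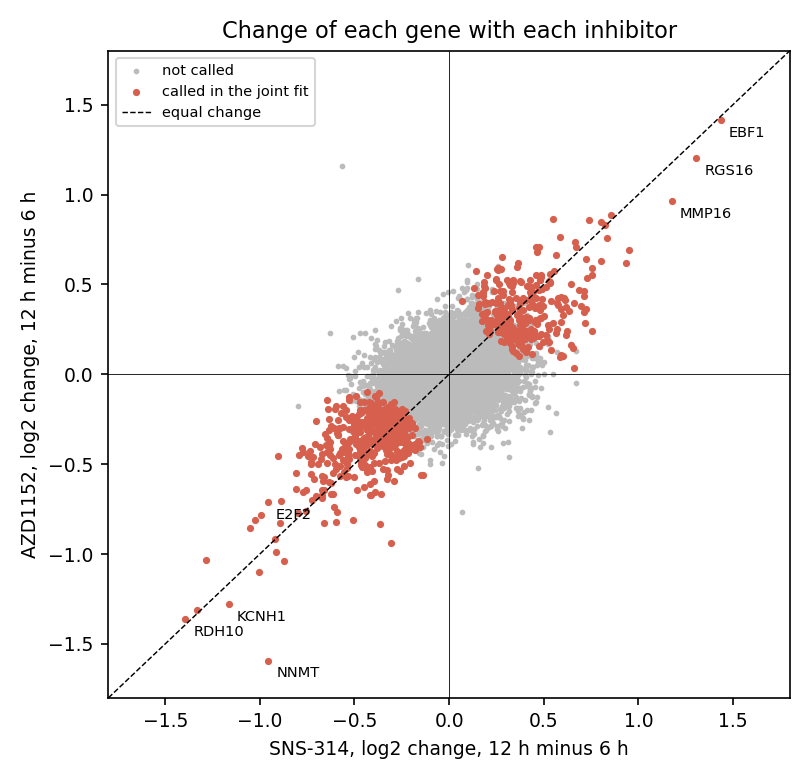
Log2 change from limma, 12 h minus 6 h, of each of 8313 genes with AZD1152 (vertical axis) and with SNS-314 (horizontal axis), with the 754 genes called in the joint fit in red and the others in grey. The dashed line marks equal change. The called genes lie in the quadrants of equal sign, which their choice by the joint fit favours, with RDH10 near the dashed line and NNMT below it. The points of EBF1 and RGS16 rest on 6 h values below background.

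The other time points of the series place the step from 6 h to 12 h in its course, as group means ± SD. They are a description, and no test was run on them. RDH10 was at 10.89 in the 0 h controls, at 12.22 (AZD1152) and 12.21 (SNS-314) at 6 h, at 10.86 and 10.82 at 12 h, and at 10.57 and 10.45 at 48 h. EBF1 was at 8.71 at 0 h, at 7.52 and 7.44 at 6 h, at 8.94 and 8.87 at 12 h, and at 8.41 and 8.43 at 48 h, with the 6 h values below background. For these genes the 6 h groups stand apart and the 12 h groups lie near the 0 h controls. E2F2 had another course, with 11.33 at 0 h, 11.40 and 11.43 at 6 h, 10.68 and 10.47 at 12 h, and 9.54 and 9.39 at 48 h, so that the 12 h groups lie between 6 h and 48 h. DLGAP5 was at 11.73 at 0 h, 11.57 and 11.58 at 6 h, 12.07 and 12.12 at 12 h, and 10.95 and 10.72 at 48 h. Its highest means were at 12 h. CCL2 was at 13.98 at 0 h, 10.58 and 10.55 at 6 h, 11.21 and 11.35 at 12 h, and 12.32 and 12.25 at 48 h, below the 0 h level at each later time.

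**Figure D4:**
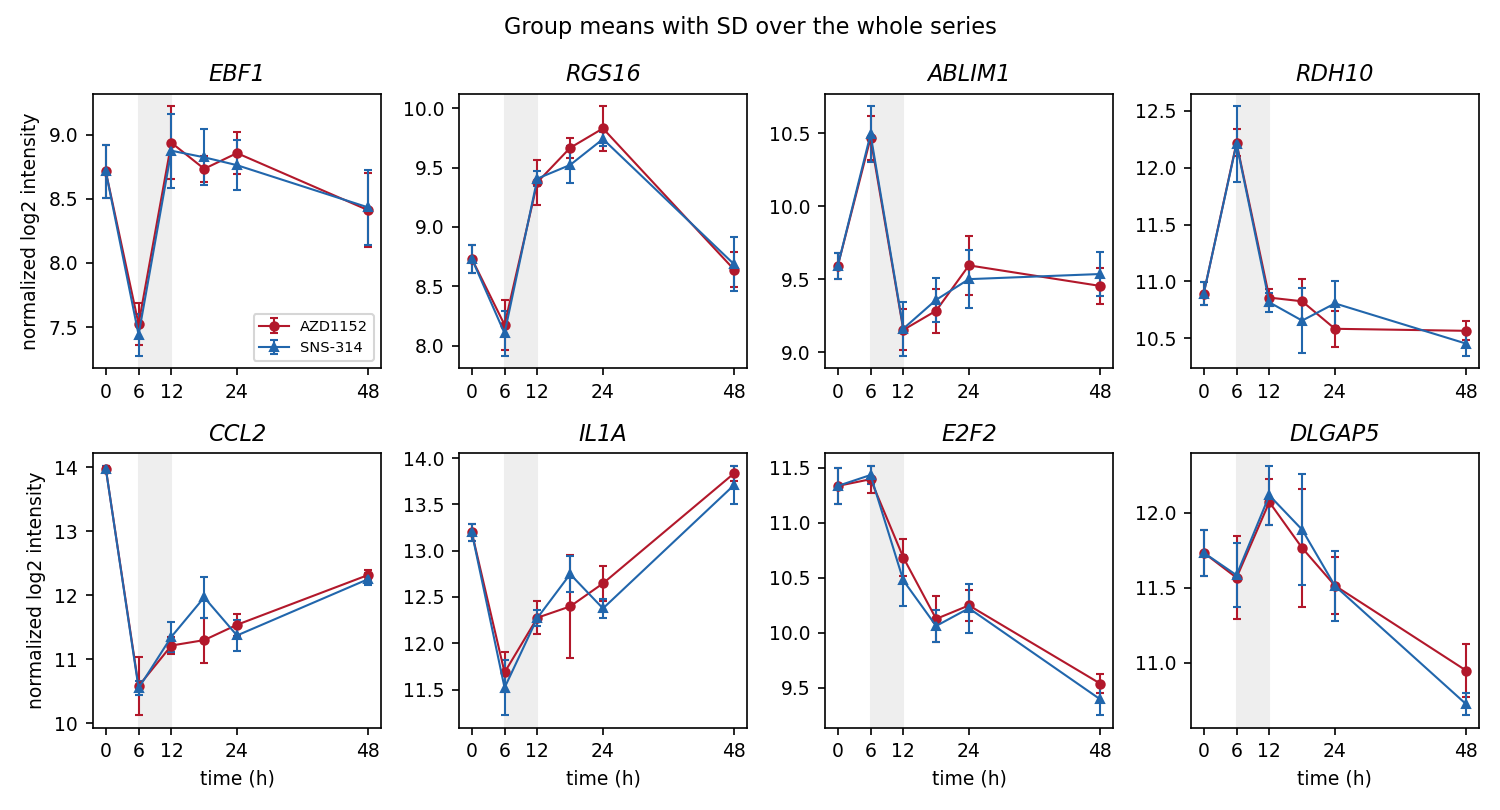
Group means of normalized log2 intensity (vertical axis, own range in each panel) over time in h (horizontal axis) for 8 genes, with AZD1152 in red, SNS-314 in blue, bars for SD (n = 3 at 6 h and n = 4 at other times) and the step from 6 h to 12 h shaded. EBF1, ABLIM1 and RDH10 stand apart at 6 h, E2F2 has its lowest means at 48 h, and DLGAP5 has its highest means at 12 h. The 6 h values of EBF1 and RGS16 are below background.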

How the data were processed

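Biotin-labelled RNA of 42 samples was measured on Illumina bead arrays of 1 colour, 1 array a sample. Per the file headers the values are the non-normalized intensity of 47312 probes. A table deposited by the authors with log2 values, quantile normalized with a median of 8.15 on every array, was used as an alternative, and how it was made is not given in the sources used here. Of 2 contradictory header lines the one whose names match that table for 42 of 42 columns was used (lowest rank correlation 0.999977).

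Background correction by normexp (offset 50) and quantile normalization over all 42 arrays, followed by log2, used limma 3.58.1 and R 4.3.3. With no detection p-values in the tables, background was set per array from the mode and lower flank of the signal, at its 95th percentile. A probe was kept when above it on at least 3 arrays of 1 of the 4 groups, and 12399 were. By the platform annotation 30110 probes had 1 symbol, 8 several and 17194 none, and the brightest kept probe stood for each of 8313 genes. Dim probes understate folds, and where a whole group lay below background the fold is a bound against its threshold. The median array intensity was 238, 268 and 294 (lowest, median, highest) at 12 h and 240, 261 and 306 at 6 h. The number of arrays limits the precision (median SE 0.085).

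Time was tested over 14 arrays in limma with inhibitor as covariate (11 residual degrees of freedom), and each inhibitor and their difference in a group-means fit. The procedure was tested on simulated data. There 88% of genes given a 2-fold change and 35% of those given a 1.5-fold change were called with the right sign, and 3 unchanged genes were called. A gene that was not called may therefore still have changed. The members and the 35 gene lists were chosen with earlier results of these data known. Named genes are the 12 largest called rises and falls, up to 5 called members of each list, and fixed genes. Those of the last 2 kinds whose call was lost without a single array are counted but not described, apart from the fixed gene CCNB1. The labels do not say whether equal replicate numbers share a culture, and the main fit is unpaired. Residuals of the same number at 12 h and 6 h correlated with r from 0.12 to 0.44 in 6 pairs of the same inhibitor. For different numbers, with any inhibitor, r was -0.38 to 0.38 (median -0.12, 36 pairs). At the same time and number, r between the inhibitors was 0.14 to 0.31 (7 pairs). Each number shared a chip, so that the replicate block is also a chip block. Alternatives were the background correction, the deposited values, the scaling, the filter, the probes, the variance model, all 42 arrays, the block, an estimated correlation, single chips, and leaving out each array.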

Additional observations from a re-analysis of the deposited data

Results flagged for a closer look

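In 17 of 234 combinations of a named gene and a 12 h group of 4 arrays, 1 array lay far from the other 3 by Dixon's test at the 95% level, where chance gives about 5% of groups. With AZD1152 at 12 h, replicate 4 was apart for EGFR (8.71, others 8.91 to 8.94), FOXN3 (11.02, others 10.80 to 10.83) and SHC4 (8.15, others 8.72 to 8.78). Replicate 1 was apart for GABARAPL1 (10.21, others 10.27 to 10.28), IFIT1 (9.72, others 9.53 to 9.55) and JDP2 (8.56, others 8.64 to 8.66), and replicate 3 for KIF20B (11.56, others 11.92 to 11.99) and SESN3 (8.90, others 8.73 to 8.76). With SNS-314 at 12 h, replicate 4 was apart for CCL2 (11.71, others 11.22 to 11.24), DDIT3 (9.10, others 9.26 to 9.29), DUSP1 (9.46, others 9.9201 to 9.9999) and MYC (11.23, others 11.46 to 11.47). Replicate 1 was apart for IL1B (13.99, others 14.25 to 14.30) and WWC1 (8.79, others 8.06 to 8.16), replicate 2 for HMMR (12.40, others 12.90 to 12.99) and THBS1 (14.29, others 13.82 to 13.88), and replicate 3 for KIF20A (12.32, others 12.47 to 12.50).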

How the results depend on the processing

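The count of 754 changed genes was between 552 and 889 under all alternatives other than no filter, where 20043 genes were tested and 465 called, and single chips, with 715, 564 and 97 calls for replicates 1, 2 and 3 (350 higher and 365 lower, 282 and 282, and 38 and 59). With replicate as a block 889 were called, and 402 (188 higher, 214 lower) with AZD1152, against 203 without the block. The block gained MCM5, PLK1 and GDF15 and lost CCNB1, CCND1, NOP16 and SPARC among the named genes. With no filter AZD1152 had 77 and SNS-314 169 calls. Leaving out 1 array gave 571 to 838 calls in the joint fit, 79 to 291 with AZD1152, 162 to 514 with SNS-314 and 0 for the difference of the inhibitors, which had 0 calls under every alternative run. Scaling to the 75th percentile moved SNS-314 to 97 higher and 268 lower (26.6% higher, 39.9% as reported). Leaving out both 12 h arrays numbered 4, a choice made after seeing the data, gave 769. The median of YAP targets was -0.29 with that scaling, -0.18 with no filter, -0.19 with a filter on all 14 arrays or the mean over probes, and -0.29 on the chip of replicate 2. The matrix median was -0.12 with that scaling, 0.024 with no filter and 0.034 on the chip of replicate 3. The ERK median was 0.13 with the block and without both arrays numbered 4, and 0.12 and 0.14 on the chips of replicates 1 and 2. Medians on single chips were 0.068 for mitosis and 0.10 for FOXO genes (replicate 1), and 0.29 for NF-κB targets and -0.095 for the contractile list (replicate 2). The cause of these shifts was not tested. Of 102 called named genes 78 kept their call under every alternative other than single chips, and 20 lost it without at least 1 single array. None of the 102 changed direction under an alternative run, single chips included. Among the 15 named genes not called, AURKB, CDC20, CXCL1, CXCL8, MYC and NFKBIA changed sign under at least 1. Differences of the inhibitors within single chips were not run, as no residual degrees of freedom remain.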
